A study of Mus musculus with 24 samples.

Results

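The miRNA entries described here are the mouse miRNAs whose names run from miR-5000 to miR-6895 by number, with any letter or strand suffix. They were taken from the gene names of the non-control spots in the scanner output, which gave 180 entries with 380 probes, of 1881 miRNAs on the array. The study profiled miRNA from serum exosomes, the small vesicles that cells release into blood, in mice that received either toosendanin (TSN) or its vehicle. TSN, a plant triterpenoid known to be toxic to the liver, comes from Melia species, and the series title links the data to miR-106b-5p, vimentin and the liver's adaptation to drug injury. The 3 TSN groups received 80 mg/kg for 3, 9 or 21 days, and 3 vehicle groups served as controls at the same days. All mice were male BALB/c, no allele or transgene is named, and serum was collected a day after the last dose. Each group held 4 one-colour arrays, so n = 4 per group throughout. Whether a sample was 1 animal or a pool is not given in the labels, so the p-values below measure the spread between these samples.

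Control days 3 and 9 shared a slide, control day 21 lay on a second slide, TSN day 3 on another, and TSN days 9 and 21 shared the last of the 4 slides. The arms never shared a slide or a scan date, and treatment and slide cannot be told apart in any TSN comparison. The TSN arrays were brighter: the 75th percentile of the probe intensity, over the 261 probes well above background on every array, was 73.5 to 609 on the control arrays and 737 to 1748 on the TSN arrays. Intensities of the labelling spike-ins were 245 to 904 on control and 1287 to 1925 on TSN arrays, and those of the hybridisation spike-ins 27541 to 33155 and 26508 to 30123. Among markers of cells whose RNA reaches serum, the 4 red cell miRNAs were well above background on all 24 arrays, with a summed scaled level of 33.1 to 56.7 in control day 3, 33.02 to 65.6 in control day 9, 53.5 to 94.5 in control day 21, 28.2 to 47.9 in TSN day 3, 74.9 to 94.4 in TSN day 9 and 41.5 to 62.8 in TSN day 21. Of the 3 striated muscle miRNAs, miR-206-3p was above background on no array, and the summed level was 0.180 to 1.16 in TSN day 9 against 0.0431 to 0.122 in the other 5 groups. The 3 hepatocyte miRNAs summed to 0.509 to 4.89 in TSN day 9 and 0.287 to 1.01 elsewhere, and the 4 platelet and leukocyte miRNAs to 1.73 to 2.14 in TSN day 9 and 2.04 to 7.12 elsewhere. The part of these cells in the values of the entries was not tested.

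A miRNA is a short RNA that guides an Argonaute protein to messenger RNAs, mostly by pairing through its seed, bases 2 to 8 from its 5′ end, and lowers their translation or stability. The registry of miRNAs numbers entries in order of discovery, so high numbers mark miRNAs that came from deep sequencing after the widely conserved families had been named. Many such entries are found in few species, and for most of them little is known about targets or tissue, so no role is given for the entries below.

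Mature sequences were found for 155 of the 180 entries, and for 34 of the 41 that could be tested for change, in the RefSeq table of the GRCm38.p6 build. Capitals mark the seed. The first set holds 10 of the 12 entries that were higher in TSN serum exosomes on at least 2 of the 3 days after scaling.
miR-6354: uGCCCUGGggaucaggucucu
miR-5100: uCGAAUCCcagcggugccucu
miR-6366: aGCUAAGGggcccggggagcca
miR-6769b-5p: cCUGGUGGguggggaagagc
miR-6394: uCCCUGAGuggggccaggucu
miR-6402: gAGCAGUUuucccaggaacccgc
miR-6238: uUAUUAGUcaguggaggaaaug
miR-5103: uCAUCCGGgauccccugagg
miR-5130: cUGGAGCGcgcgggcgaggcaggc
miR-6391: uGAGGCACgggaggacaaugu
The second set holds the 4 entries that were lower on all 3 days after scaling.
miR-5126: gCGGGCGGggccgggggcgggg
miR-5113: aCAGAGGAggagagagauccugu
miR-6418-5p: uCAGGGGAagggaagagaugc
miR-6370: gCAGGAACagcaaaggggaag
The last set holds entries named for a change at 1 day or within 1 arm, and miR-5128, which was above background on every array.
miR-5119: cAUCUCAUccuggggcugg
miR-5132-5p: gCGUGGGGugguggacucagg
miR-5128: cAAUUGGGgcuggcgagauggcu
miR-6401: uUACACUCcaguggugucgggu
miR-5131: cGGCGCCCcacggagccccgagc
miR-6360, miR-5107-5p and miR-5112 are named below without a sequence. The 4 entries that were lower on all 3 days are rich in purines, with a median of 79.1% A and G, against 57.7% among the 11 entries with a sequence that were higher on 2 or 3 days. The median was 69.1% among the 14 entries with a sequence that were above background on all arrays, 63.6% among the 122 other miRNAs seen on all arrays, and 50.0% among all 1679 mature miRNAs of the table. miR-5126 consists of G and C alone. Its locus is chr1:84695890-84695911 on the plus strand, within the span of Dner, which codes for a Notch ligand. The other 3 lie at chr15:80940049-80940071 on the plus strand within Tnrc6b, a gene of the silencing machinery itself, for miR-5113, at chr5:137529551-137529571 on the minus strand within Gnb2 for miR-6418-5p, and at chr6:19555438-19555458 on the plus strand for miR-6370. miR-5100 lies at chr11:60728698-60728718 on the plus strand within Mief2, and miR-6354 at chr1:169019041-169019061 on the minus strand. Of the 34 tested entries with a sequence, 26 lie within the span of an annotated gene. The seeds of 10 of the 34 recur in another mature miRNA of the table. The seed of miR-6394 is also that of miR-125a-5p, miR-125b-5p and miR-351-5p, and the seed of miR-6349 is that of the muscle miRNA miR-206-3p. The array's probes for the 34 pair 10 to 17 bases at the 3′ end of the miRNA, away from the seed, and none of the paired stretches occurs in another mature miRNA of the table. Other kinds of RNA and inexact matches were not searched.

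Most of these entries gave no signal. A probe was taken as above background on an array where the scanner software marked more than a 0.5 share of its spots as well above background. By that measure 129 of the 180 entries were above background on no array, 51 on at least 1, and 15 on all 24. All 51 were seen on at least 1 TSN array and 32 on at least 1 control array, so 19 were seen on TSN arrays only and 0 on control arrays only. The share with any signal, 28.3%, was close to the 28.9% of all 1881 miRNAs. It differed among number blocks, with 18 of 39 entries from miR-5046 to miR-5136 (46.2%), 3 of 29 from miR-5615 to miR-5710 (10.3%), 4 of 7 from miR-6236 to miR-6244 (57.1%), 22 of 90 from miR-6335 to miR-6481 (24.4%) and 4 of 15 from miR-6516 to miR-6769 (26.7%).

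Per array, 16 to 32 entries were above background in the controls and 36 to 48 in the TSN groups. At day 3 the counts averaged 41.8 ± 4.27 (SD, n = 4) in TSN and 23.8 ± 4.35 in control. At day 9 they were 41.5 ± 3.00 and 20.3 ± 5.68, and at day 21 they were 45.5 ± 2.65 and 25.0 ± 6.78. The groups did not overlap on any day, and the exact two-sided permutation p was 0.0286 at each day, the smallest that 4 against 4 arrays allow, with an adjusted p of 0.0286 over the 3 days. The number of all miRNAs above background moved in the same way, from 183 to 351 on control arrays to 378 to 467 on TSN arrays. As a share of those miRNAs the entries made up 10.1% ± 0.306 in control and 9.67% ± 0.204 in TSN at day 3, 9.15% ± 0.567 and 9.51% ± 0.560 at day 9, and 9.17% ± 0.150 and 9.96% ± 0.354 at day 21. The exact two-sided permutation p for these shares was 0.0857, 0.4 and 0.0286, and adjusted over the 3 days 0.129, 0.4 and 0.0857. At day 21 the arms did not overlap, at 8.98% to 9.32% in control and 9.64% to 10.4% in TSN, and 0.0286 is the smallest p these arrays allow. A single day at that p cannot fall below 0.0857 after adjustment, so the adjusted value does not show that the shares were alike. At days 9 and 21 the difference in share changed sign when every spot of the probe had to be above background.

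**Figure D1:**
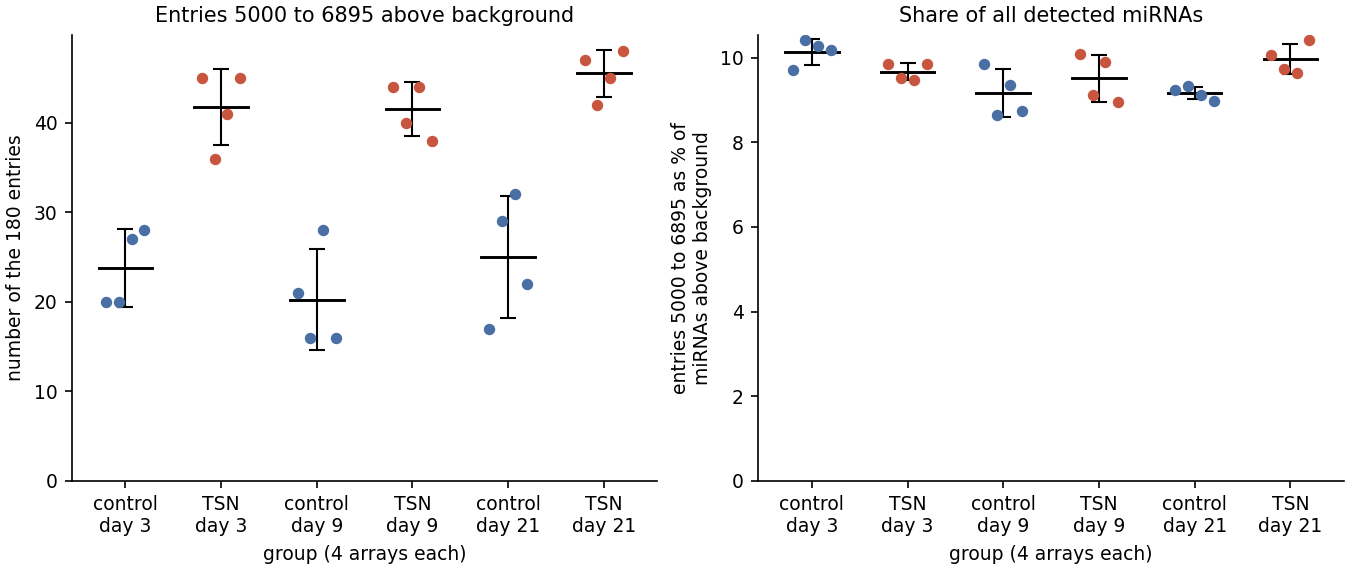
Each point is 1 array, with the group mean and SD as bars (n = 4). The left panel counts the entries from miR-5000 to miR-6895 that were well above background, 16 to 32 on control and 36 to 48 on TSN arrays, and the right panel gives them as a percentage of all miRNAs above background on that array, where the arms lie between 8.65% and 10.4%.

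The entries that gave signal were richer in G and C than those that did not. Over the 34 tested entries with a sequence the median was 61.9% G and C, and over the 121 entries with a sequence that were not tested it was 50.0%. A run of 4 guanines (GGGG, read on the miRNA strand only) occurs in 14 of the 34 (41.2%) and in 8 of the 121 (6.61%). It occurs in 9 of the 14 entries with a sequence that were above background on all arrays (64.3%), in 6 of the 112 seen on no array (5.36%), and in 11.2% of all mature miRNAs of the table. Other miRNAs of the array leaned the same way with a smaller gap, with such a run in 21.7% of the 337 tested, 27.9% of the 122 above background on all arrays and 7.18% of the 1045 seen on no array. These shares describe sequence and signal on 1 array design, and no test was made of them.

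**Figure D2:**
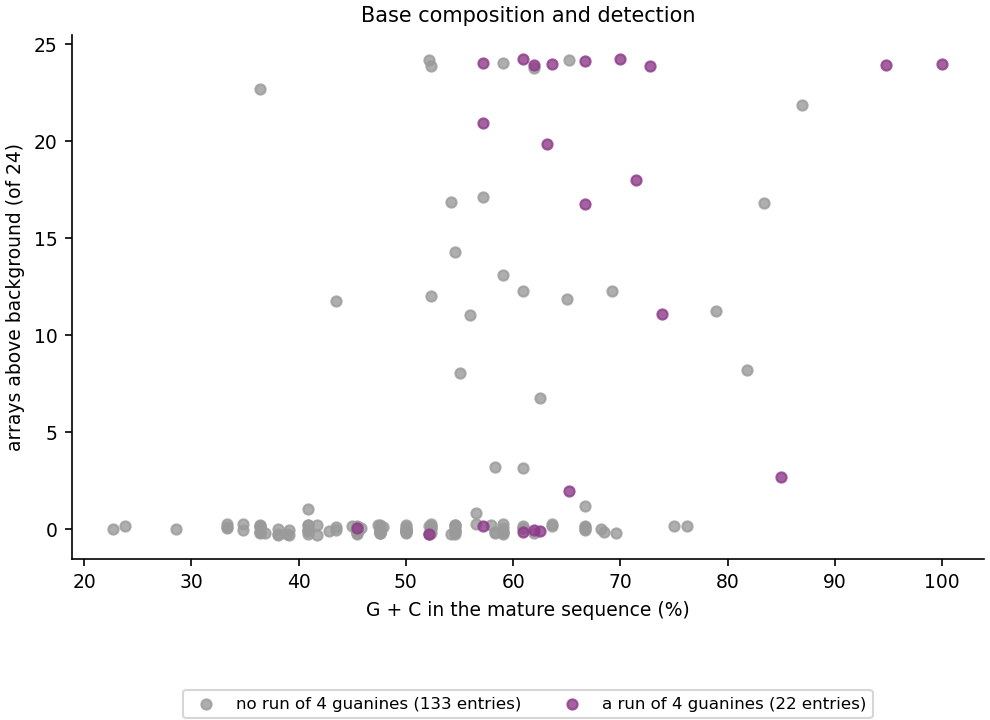
Each of 155 entries with a mature sequence is a point, placed by its G and C content in percent and by the number of the 24 arrays on which it was well above background (shifted slightly so that points separate). Purple points carry a run of 4 guanines (22 entries) and grey points do not. Entries below 50% G and C sit almost all at 0 arrays, and 9 purple points sit at 24.

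For levels, each array was divided by its own 75th percentile over the 261 probes above, values under 0.0135 were raised to it (log2 of -6.21), and log2 was taken, so a scaled level of 0 equals that percentile. A difference between groups therefore says how an entry moved relative to the brighter miRNAs of the same arrays. Levels of different entries come from different probes and are not set against each other. Testing covered the 41 entries with all 4 arrays of some group above background, within 441 such miRNAs in all. Of the 41, 22 met that condition in TSN groups only, so that their detection already differs between arms, 19 met it in both arms and 0 in control groups only.

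The 15 entries above background on all 24 arrays were miR-5100, miR-5112, miR-5113, miR-5126, miR-5128, miR-5622-3p, miR-6349, miR-6354, miR-6366, miR-6368, miR-6385, miR-6392-3p, miR-6418-5p, miR-6538 and miR-6769b-5p. Of the 41, 10 were above background on no control array, so their control level is only a bound. Within the control day 21 group the 75th percentile itself ranged from 81.4 to 609, and between its dimmest and brightest array the scaled levels of the 15 entries moved by a median of -0.02, with 14 of the 15 within 0.5. The exception was miR-5126, which was 0.78 lower on the brighter array, at 4.37 against 5.15. Some entries outside these 15 moved more, by 1.14 for miR-6407, 0.96 for miR-6386 and -0.59 for miR-6402. Others moved less, by 0.08 for miR-6401 and 0.19 for miR-5130. The comparison covers 1 pair of control arrays, and the TSN arrays, at 737 to 1748, lie above its range of brightness.

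Against control at the same day, 12 of the 41 entries were higher and 4 lower in TSN serum exosomes at day 3, 12 higher and 16 lower at day 9, and 12 higher and 4 lower at day 21 (limma, adjusted p under 0.05 over the 441 miRNAs). Among all 441 miRNAs the same rule called 29.3% higher and 18.6% lower at day 3, 27.7% and 34.5% at day 9, and 23.1% and 21.8% at day 21, or 47.8%, 62.1% and 44.9% in either direction. The entries' shares were 29.3% and 9.76% at day 3, 29.3% and 39.02% at day 9, and 29.3% and 9.76% at day 21, so the higher calls lay near the background on each day. The median change over the 41 was 0.01, -0.05 and 0.24 on the log2 scale, beside 0.10, -0.04 and 0.01 over all miRNAs tested. Over the 3 days, 8 entries were higher each time, 4 were higher on 2 days and 4 on 1 day. Another 4 were lower each time, 12 were lower on 1 day, which was day 9 for each, and 9 passed the test on no day. The arms' arrays did not overlap for 15, 23 and 15 entries (36.6%, 56.1% and 36.6%), beside 40.6%, 51.9% and 38.8% of all miRNAs. Every direction here is relative to the scaling. Without any scaling the median over all tested miRNAs moved up by 2.10, 2.45 and 2.06, and as fitted 38, 37 and 41 entries were called higher and 0 lower. Read relative to that shift, 9 were higher and 11 lower at day 3, 9 and 11 at day 9, and 8 and 7 at day 21. Normexp background correction moved that median the other way, by -1.66, -2.03 and -1.37. As fitted it called 4 higher and 33 lower at day 3, 4 and 34 at day 9, and 5 and 29 at day 21, and relative to the shift 14 and 0, 14 and 1, and 14 and 0. As fitted, the authors' deposited values gave 19 and 4, 23 and 7, and 16 and 4, and the percentile over all probes gave 15 and 2, 18 and 1, and 11 and 2. In either reading the balance of higher and lower entries depended on the scaling. Of the entries called higher, 4, 4 and 3 were above background on no control array of that day. Only 5, 4 and 4 were above background on every array of both arms that day. Of those called lower, 4, 10 and 3 were above background on every array of both arms that day. Since 22 of the 41 entered the test through TSN groups only, the counts of higher calls are not independent of that condition.

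**Figure D3:**
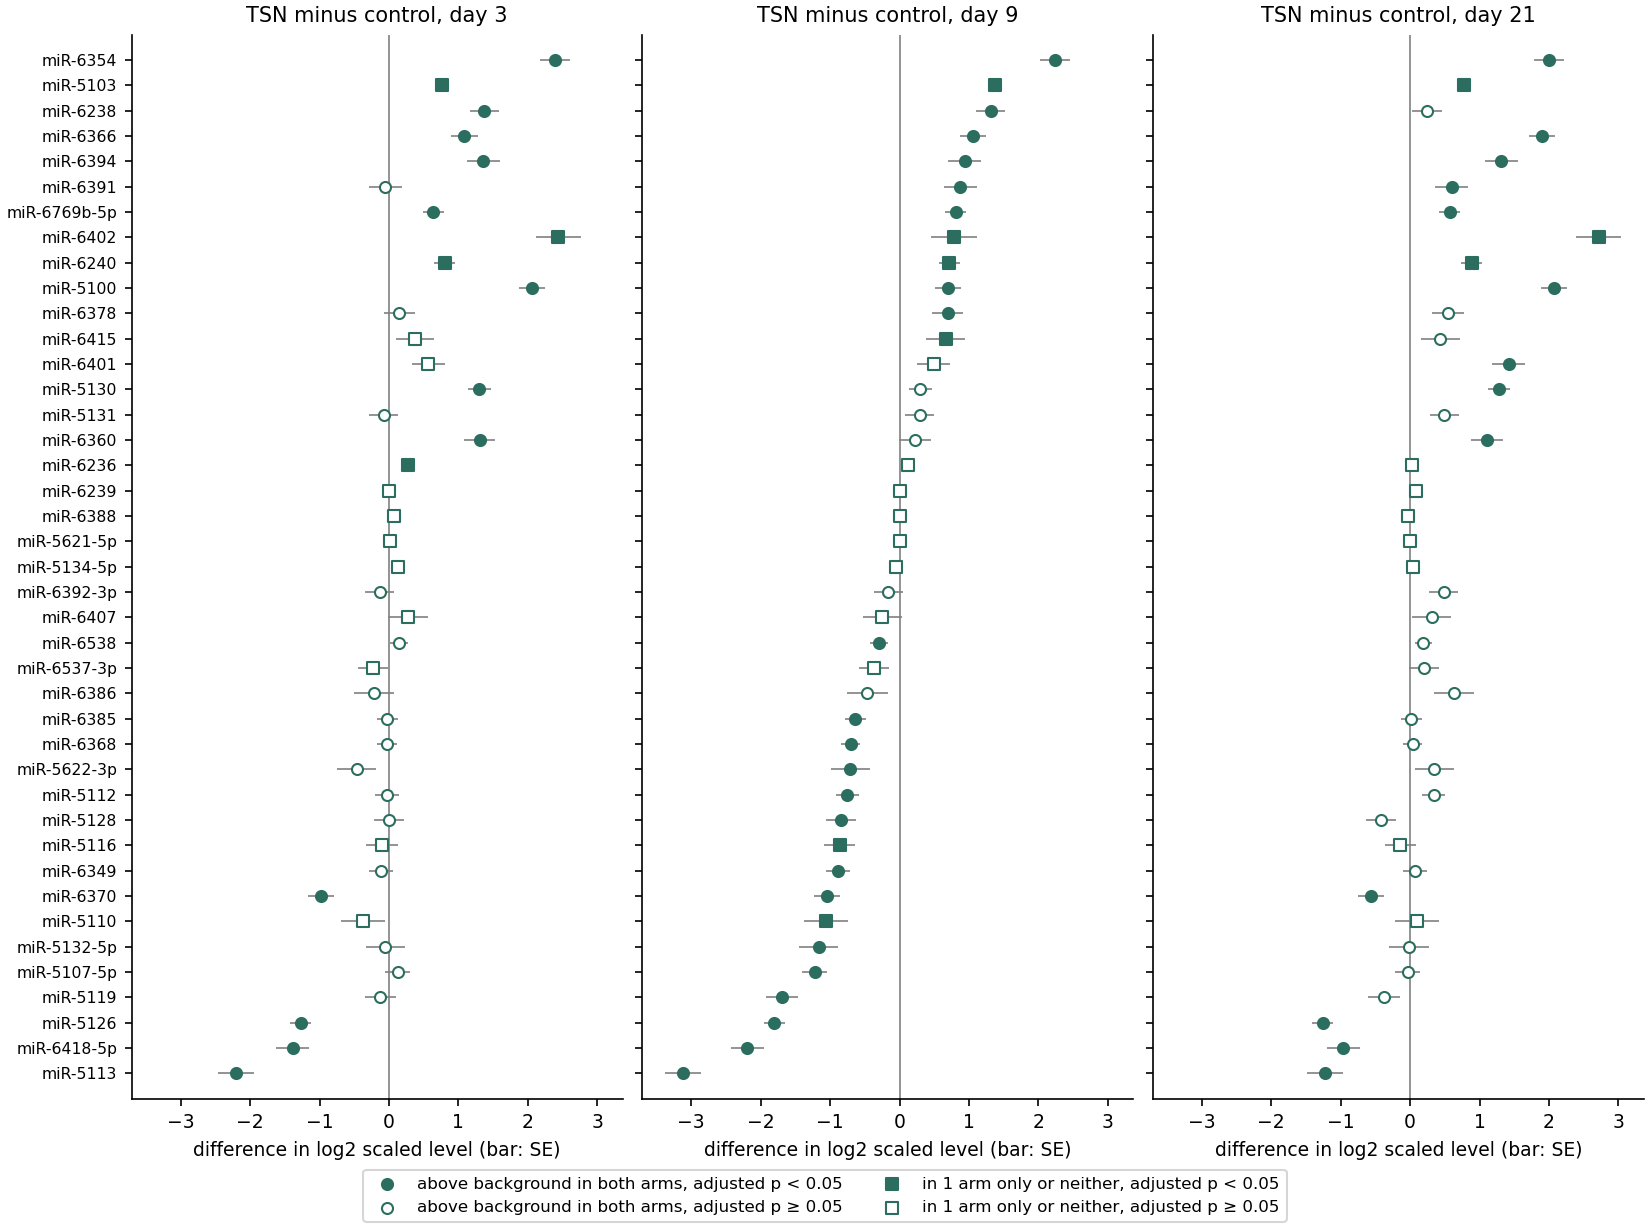
Points give the TSN minus control difference in log2 scaled level of the 41 tested entries at each day, with the SE of the limma fit as bars, ordered by the day 9 value. Filled symbols passed an adjusted p of 0.05, circles were above background in both arms and squares in at most 1. The panel of day 9 has 16 filled symbols below 0, of which 4 are filled and below 0 on the other days too, and without scaling between arrays all 16 turn positive.

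Among the entries that were higher, miR-6354 changed most at days 3 and 9 of those measured on every array, and miR-5100 differed by slightly more at day 21. Its scaled level on the 4 control arrays of day 3 was -1.94, -1.96, -1.86 and -1.95, and on the 4 TSN arrays 0.70, 0.16, 0.07 and 0.92. At day 9 control arrays read -1.81, -2.46, -1.89 and -2.43 and TSN arrays 0.25, 0.02, 0.52 and -0.45. At day 21 control arrays read -2.09, -2.07, -2.10 and -2.53 and TSN arrays 0.18, -0.47, -0.35 and -0.16. All TSN arrays lay above all control arrays on each day, with no overlap. The differences were 2.39 ± 0.22 (SE), 2.24 ± 0.22 and 2.00 ± 0.22 on the log2 scale, with limma adjusted p of 4.62e-08, 4.31e-08 and 4.05e-07. With any shift of the median miRNA above 0.1 taken off, they held their direction and call under every alternative in which they were run. They then lay between 1.51 and 3.34. As fitted without scaling they were 5.24, 5.80 and 4.55, and the values as fitted under the other settings are not given here.

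miR-5100 was higher on all 3 days but less so at day 9. Its control arrays read 1.66, 1.18, 1.06 and 1.45 at day 3, 1.39, 1.1, 1.52 and 1.30 at day 9, and 1.41, 1.55, 1.11 and 1.18 at day 21. The TSN arrays read 3.33, 3.96, 3.34 and 2.96 at day 3, 2.08, 1.69, 2.38 and 1.98 at day 9, and 3.15, 3.60, 3.37 and 3.42 at day 21. Controls were level across days, and the TSN arrays of day 9 sat between them and the TSN arrays of the other days. The differences were 2.06 ± 0.19, 0.70 ± 0.19 and 2.07 ± 0.19 (limma adjusted p at days 3 and 21 of 4.62e-08 and 3.65e-08).

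miR-6366 had its highest group mean in TSN day 21. Control arrays read 0.60, 0.62, 0.56 and 1.06 at day 3, 0.71, 0.22, 0.77 and 0.46 at day 9, and 0.48, 0.56, 0.12 and 0.58 at day 21. TSN arrays read 1.48, 2.00, 2.33 and 1.37, then 1.71, 1.54, 1.86 and 1.28, then 2.11, 2.54, 2.38 and 2.29. The arms were apart on every day. Its differences were 1.09 at day 3, 1.06 ± 0.19 at day 9 (limma adjusted p = 8.64e-05) and 1.90 ± 0.19 at day 21 (adjusted p = 1.49e-07). miR-6769b-5p, seen on all arrays, was also higher on all 3 days, by 0.64, 0.81 and 0.57. Its day 3 TSN arrays read 3.78, 3.86, 4.12 and 3.87 against 3.15, 3.19, 3.17 and 3.56 in control.

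The other entries that were higher were dim in the controls. miR-6394, which carries the miR-125 seed, was above background on 2, 1 and 2 of the 4 control arrays at days 3, 9 and 21 and on all TSN arrays, and was higher by 1.36 ± 0.24, 0.94 ± 0.24 and 1.31 ± 0.24. miR-6238 was higher by 1.38 ± 0.21 at day 3 and 1.31 ± 0.21 at day 9 (limma adjusted p of 1.66e-05 and 2.26e-05) but differed by 0.24 at day 21, where its control arrays read -1.59, -1.81, -1.81 and -2.38 against -2.80, -2.84, -2.73 and -2.51 at day 3. That control group sits on a slide of its own, and slide and day cannot be told apart there. With the software's total gene signal in place of the probe mean, the sign of miR-6238 turned, to -0.20 and -0.018. miR-5130 was higher by 1.30 at day 3 and 1.28 at day 21, miR-6360 by 1.31 and 1.11, miR-6391 by 0.88 at day 9 and 0.60 at day 21, and miR-6401 by 1.42 at day 21.

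miR-6402 was above background on 12 of 12 TSN arrays and 0 of 12 control arrays. Taken against the lowest signal that counts as above background on the control arrays, it was at least 1.94-fold higher at day 3 and at least 3.16-fold higher at day 21. Its intensity on control arrays, before scaling, averaged 3.00, 3.13 and 4.36 at days 3, 9 and 21. On TSN arrays it averaged 117, 60.7 and 148. miR-5103 and miR-6240 were likewise above background on all 12 TSN arrays and on no control array. Their levels lay so near the floor that no fold is given, and the very small adjusted p of miR-5103 at day 9, 4.86e-14, comes from control values that are all at the floor and so have no spread. The values of these 3 entries come from the brighter of 2 probes each. The other probe was above background on 0 arrays for miR-6402 and miR-5103, and on 12 for miR-6240.

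**Figure D4:**
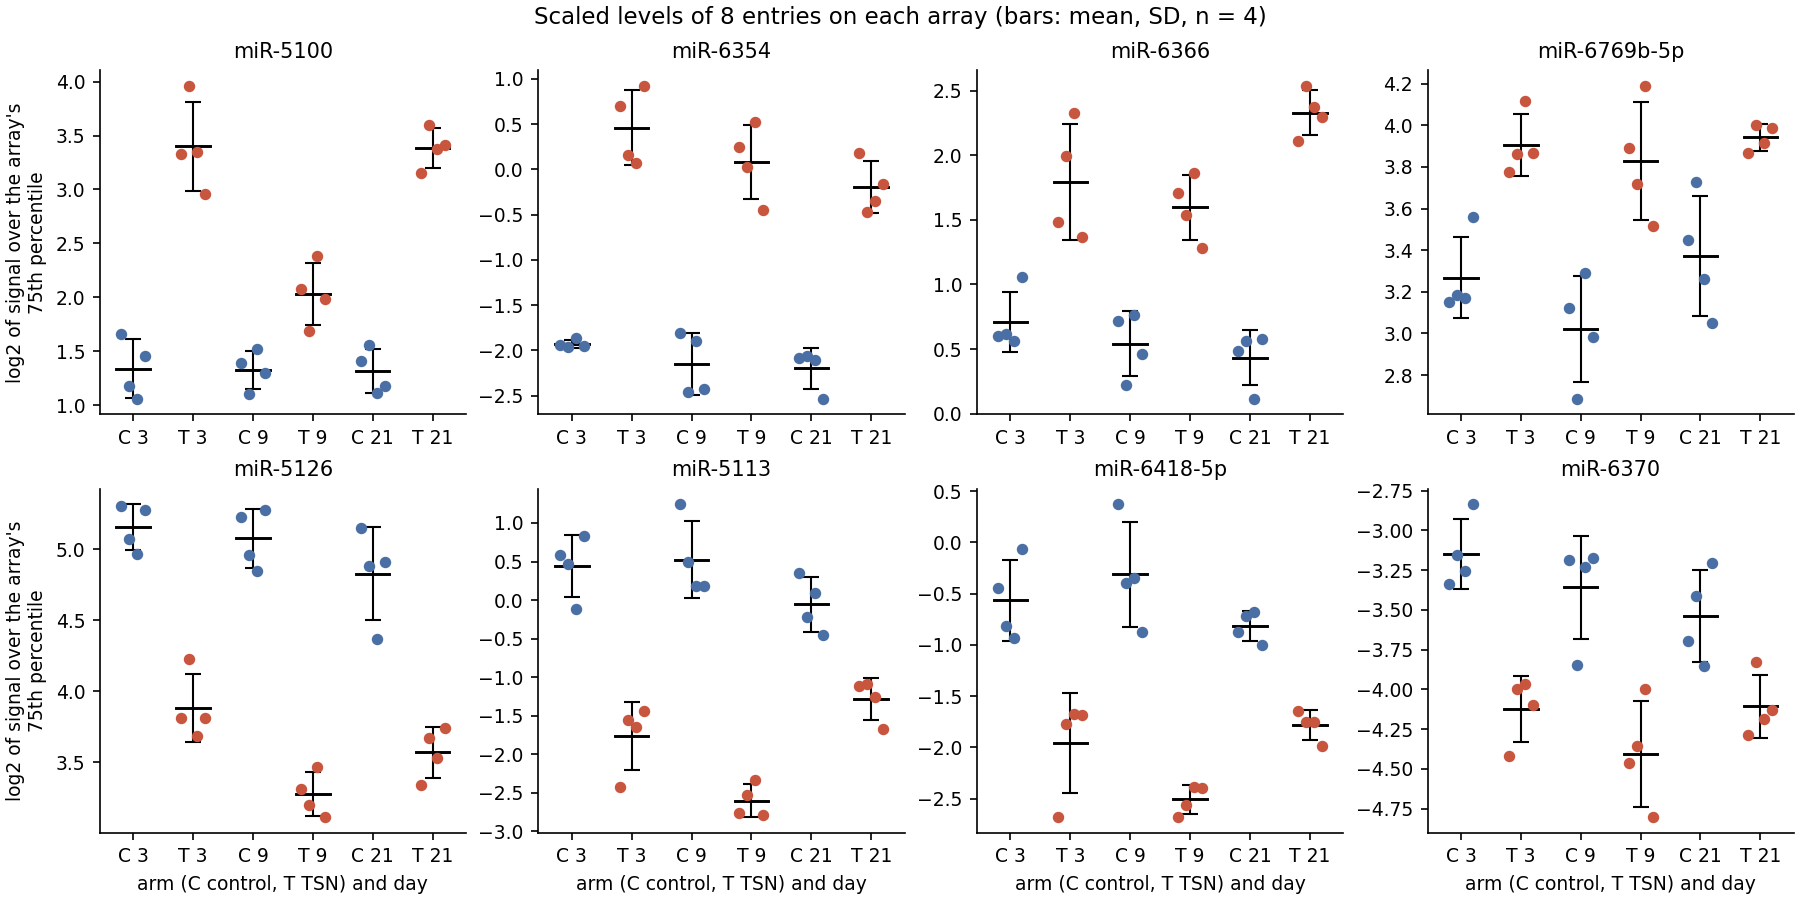
Scaled levels of 8 entries on every array, by arm (C control, T TSN) and day, as log2 of the signal over the array's 75th percentile, with the mean and SD of each group (n = 4). In the upper row the TSN arrays sit above the controls of the same day and in the lower row below them, with no overlap except in miR-6370 at day 21. The differences of the lower row turn positive without scaling between arrays.

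miR-5126, miR-5113, miR-6418-5p and miR-6370 were lower on all 3 days relative to the 75th percentile, while their unscaled intensity was higher in TSN. miR-5126 read 5.30, 5.07, 4.97 and 5.28 on control and 3.81, 4.23, 3.68 and 3.81 on TSN arrays at day 3. At day 9 it read 5.23, 4.96, 4.85 and 5.28 against 3.32, 3.20, 3.47 and 3.11, and at day 21 it read 5.15, 4.88, 4.37 and 4.91 against 3.34, 3.68, 3.53 and 3.74. The arms were separate on each day. Its differences were -1.27 ± 0.15, -1.80 ± 0.15 and -1.26 ± 0.15 (limma adjusted p of 9.41e-07, 7.23e-09 and 1.65e-06). The mean intensity before scaling was 5890 in control and 16973 in TSN at day 3.

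miR-5113 was the entry with the largest drop at days 3 and 9. On control arrays it read 0.58, 0.46, -0.12 and 0.83 at day 3, 1.24, 0.49, 0.18 and 0.18 at day 9, and 0.36, -0.22, 0.10 and -0.46 at day 21. On TSN arrays it read -2.42, -1.55, -1.64 and -1.44, then -2.77, -2.52, -2.34 and -2.78, then -1.11, -1.08, -1.26 and -1.67. TSN day 9 was the lowest group, and no TSN array reached a control array. The differences were -2.20 ± 0.26, -3.12 ± 0.26 and -1.23 ± 0.26 (limma adjusted p of 7.75e-07, 7.00e-09 and 7.12e-04). Its intensity before scaling was higher in TSN by 0.65, 0.44 and 1.33 on the log2 scale, with means of 228 in control and 344 in TSN at day 3 and of 211 and 252 at day 9.

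miR-6418-5p followed with differences of -1.39 ± 0.24, -2.19 ± 0.24 and -0.96 ± 0.24. Its day 9 arrays read 0.37, -0.39, -0.35 and -0.87 in control and -2.68, -2.56, -2.39 and -2.39 in TSN. miR-6370 differed by -0.98 ± 0.18, -1.05 ± 0.18 and -0.57 ± 0.18 (adjusted p at day 21 of 0.0179). With normexp and changes read relative to the median miRNA, the sign turned for miR-5126 on all 3 days (0.76, 0.71 and 0.44), for miR-6418-5p at days 3 and 21 (0.27 and 0.30) and for miR-5113 at day 21 (0.21). For miR-5126 the adjusted p there, from the limma SE, was 0.00165, 0.00261 and 0.0682, so it was called higher at days 3 and 9. The turned values of miR-6418-5p and miR-5113 did not pass.

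Day 9 had 12 entries that were lower at no other day. The largest changes among those with an array above background in both arms were in miR-5119 (-1.70 ± 0.23), miR-5107-5p (-1.22 ± 0.18) and miR-5132-5p (-1.17 ± 0.29), with limma adjusted p of 3.06e-06, 1.13e-05 and 0.00151. These 3 were above background on only 2, 2 and 1 of the 4 control arrays and on all 4 TSN arrays. Their control levels therefore rest mostly on arrays without signal. Without scaling the 3 were higher in TSN, by 1.72, 2.23 and 1.65. Their sizes at days 3 and 21 were -0.12 and -0.38, 0.12 and -0.03, and -0.05 and -0.02, and none passed the test there. In 3, 4 and 8 of 26 alternatives these entries did not keep both sign and call at day 9. The sign of miR-5132-5p turned, to 0.36, with the software's total gene signal. miR-5128 was among the 12, at -0.85, with TSN day 9 arrays of 1.05, 0.74, 1.37 and 0.99 and control day 9 arrays of 1.88, 1.85, 1.94 and 1.87. miR-5110 and miR-5116 were also called lower, at -1.06 and -0.86, although each was above background on all 4 TSN arrays and on no control array of that day, so these are not measured changes. Of the 10 entries from miR-5046 to miR-5136 with an array above background in both arms at day 9, 7 were lower and 1 higher. Of the 13 such entries from miR-6335 to miR-6481, 5 were lower and 5 higher. Among all miRNAs tested, 34.5% were lower and 27.7% higher that day, and the difference between the blocks was not tested.

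**Figure D5:**
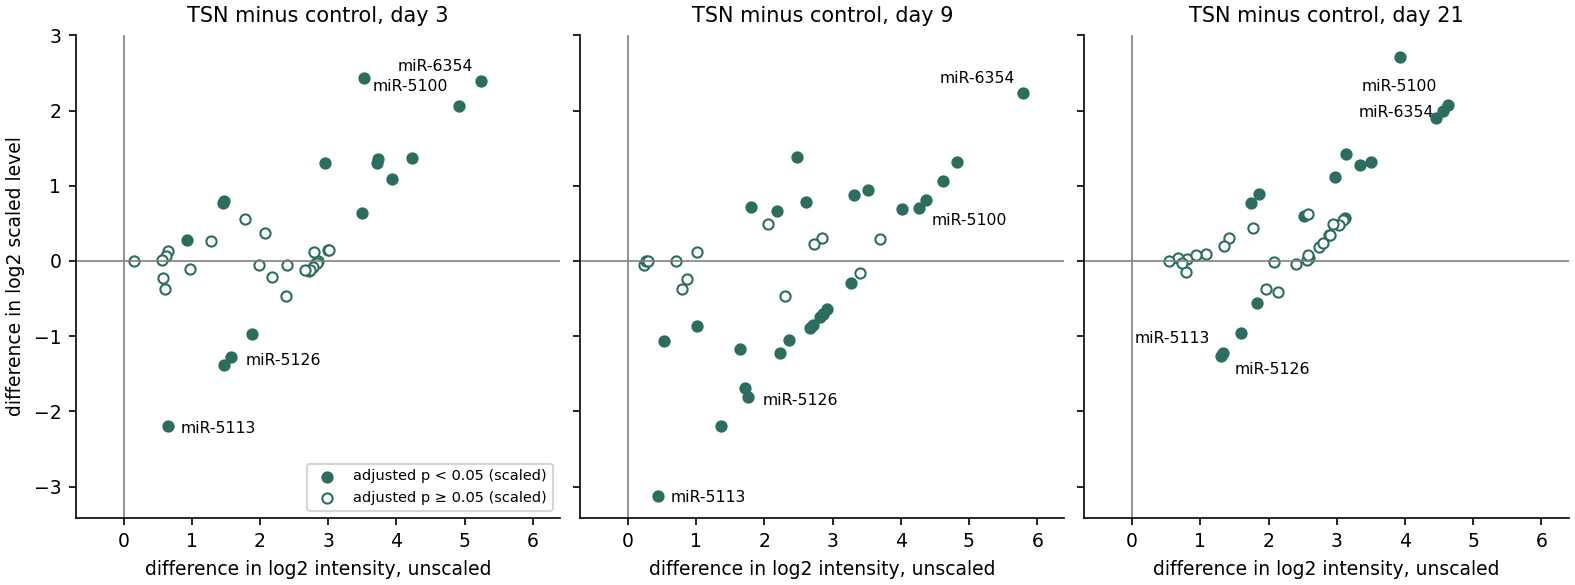
For the 41 tested entries, the TSN minus control difference in log2 scaled level is plotted against the same difference in log2 intensity before scaling, by day, with filled points for an adjusted p under 0.05 on the scaled values. No entry lies left of 0 on the unscaled axis. miR-5113 is near 0 there at day 9 (0.44) and lowest after scaling (-3.12), and miR-6354 is at the other end (5.80 and 2.24).

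A pair of comparisons lay within a slide. Between control days 3 and 9, 0 entries were higher and 1 was lower, miR-5131, beside 9.75% higher and 4.31% lower of all miRNAs, 14.1% together. It differed by -0.75 ± 0.21 (limma adjusted p = 0.0260), its arrays overlapped, and the call was lost without control day 3 replicate 3 or 4 or control day 9 replicate 2 or 4. The sign of miR-5131 turned, to 1.78, with the software's total gene signal. No entry had arrays that did not overlap, beside 17.9% of all miRNAs. Of the 41, 22 had entered the test through TSN groups only. Only 15 were above background on every array of both control groups, and 10 on no control array. Entries at the floor in both groups could not be called, so the low counts do not show that the entries were level.

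Between TSN day 9 and day 21, which share a slide, 21 of the 41 entries were higher at day 21 and 1 was lower, 51.2% and 2.44% beside 30.6% and 12.7% of all miRNAs (43.3% together). The median change was 0.52, beside 0.18 over all miRNAs tested. The entries' arrays did not overlap for 18 of 41 (43.9%), beside 39% of all miRNAs. miR-5100 was higher by 1.36 ± 0.19 (limma adjusted p = 3.23e-05), miR-5130 by 1.07 ± 0.16 (6.60e-05) and miR-6401 by 1.49 ± 0.24 (1.07e-04). The TSN arrays of miR-6401 read -5.36, -5.77, -4.78 and -5.07 at day 9 and -3.67, -4.28, -3.67 and -3.38 at day 21. miR-5113, miR-5622-3p, miR-5119 and miR-5112 were among the others that were higher, by 1.32, 1.34, 1.05 and 0.98. miR-5103 was lower, with a difference of -0.61. Without scaling the median change over the 41 was 0.55, and miR-5100, miR-5130 and miR-6401 differed by 1.24, 0.95 and 1.37. Over all alternatives, with shifts of the median above 0.1 taken off, miR-5100 lay between 1.16 and 1.47. miR-5130 lay between 0.50 and 1.17, and miR-6401 between 0.64 and 1.67. The 3 kept their direction but lost their call in 2, 2 and 1 of the alternatives. The count of higher entries changed much with the scaling, and the reason was not tested. With any shift of the median over all tested miRNAs above 0.1 taken off, it was 4 without scaling, with hybridisation spike-ins 4, with labelling spike-ins 8, with normexp 7, with total gene signal 10, with the percentile over all probes 12, with quantile normalization 20 and with the authors' deposited values 20. As fitted it was 5 with labelling spike-ins, 4 with the percentile over all probes, 15 with quantile normalization and 11 with the authors' deposited values. The 75th percentile intensity overlapped between these groups, at 1390 to 1690 on day 9 and 1085 to 1748 on day 21. The labelling spike-ins did not overlap, at 1386 to 1664 on day 9 and 1722 to 1925 on day 21, and their part in the count was not tested. The summed red cell level did not overlap either, at 74.9 to 94.4 on day 9 and 41.5 to 62.8 on day 21. Nor did the striated muscle level, at 0.180 to 1.16 and 0.0431 to 0.0795, while the hepatocyte and the platelet and leukocyte levels overlapped. The part of these cells in the count was not tested.

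Other ranges of the numbering shared this pattern in part. Between TSN days 9 and 21, 15 of the 27 tested entries from miR-1000 to miR-2999 were higher and 2 lower (median 0.46), a share of 55.6% higher. In the same comparison, 17 of the 34 tested entries from miR-3000 to miR-3999 were higher and 1 lower (median 0.48), as were 33 and 2 of the 82 from miR-6896 to miR-7094 (0.35) and 15 and 0 of the 40 from miR-7095 upward (0.37). Of the 208 up to miR-999, 32 were higher and 48 lower (-0.03). These counts stand beside each other as descriptions, and their difference was not tested.

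The change of the TSN effect between days was tested as an interaction term, which uses groups from 3 or 4 slides. From day 3 to day 9 it was called for 10 entries, 1 upward and 9 downward, 2.44% and 21.95% beside 3.85% and 15.2% of all miRNAs (19% together). miR-5119 shifted by -1.57 ± 0.32, miR-5100 by -1.36 ± 0.26 and miR-5107-5p by -1.35 ± 0.26 (limma adjusted p of 0.00184, 0.00113 and 0.00106). From day 9 to day 21 it was called for 21 entries, 19 upward and 2 downward, 46.3% and 4.88% beside 23.4% and 11.8% of all miRNAs (35.1% together). The upward share was 44.4% from miR-1000 to miR-2999, 26.5% from miR-3000 to miR-3999 and 36.6% from miR-6896 to miR-7094. It was 25% from miR-7095 upward and 10.6% up to miR-999, and the differences between ranges were not tested. miR-5113 shifted by 1.90 ± 0.37, miR-5100 by 1.37 ± 0.26 and miR-5112 by 1.09 ± 0.24 (limma adjusted p of 9.92e-04, 9.92e-04 and 0.00184). miR-6238 shifted downward, by -1.07 ± 0.30. The single upward call of the first interaction and the other downward call of the second were miR-5103, whose control values were at or near the floor, so they are not measured changes of a TSN effect. Among the 27 entries with an array above background in every group of each interaction, 0 were called upward and 8 downward from day 3 to day 9, and 16 upward and 1 downward from day 9 to day 21. The first count was 6 without TSN day 9 replicate 2, and the second was 13 without TSN day 9 replicate 1 or 2 or TSN day 21 replicate 4. Without scaling they were 4 and 6 relative to the median miRNA, and 1 and 1 as fitted.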

How the data were processed

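Entries and lists were chosen with earlier results of these data known. The scanner values are intensity, deposited 1 file per array. Background had been subtracted by Feature Extraction 10.7.1.1, with no scaling between arrays recorded, per the file headers. The authors' deposited processed values are taken as log2, since they rose with the log2 scanner values (r of 0.956 to 0.982 across miRNAs, column medians of 4.37 to 4.40, and 23 of 24 columns closest to their own array). Their scaling and centring are not given in the sources used here.

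Of 58594 spots per array, 56430 were not controls, and none was saturated. Outlier spots were left out, spots of a probe averaged, each array divided by its 75th percentile over 261 probes, floored and log2 transformed. The brightest probe by mean scaled signal stood for a miRNA. That ranking was settled after the files were seen and before any test: 4 rankings were tried, which gave 441, 433, 441 and 442 tested miRNAs and the same 41 entries. One limma 3.58.1 fit (R 4.3.3) covered 6 groups and 441 miRNAs, two-sided, with Benjamini-Hochberg adjustment at 0.05 per comparison and prior degrees of freedom of 1.36. Rows with values at the floor entered the estimate of that prior, and their part in its size was not tested. The fit was tested on simulated data. Where no array of a group was above background, a difference is a bound. Named with changes were the 6 highest and 6 lowest called entries per TSN comparison whose arrays did not overlap, and the 3 smallest adjusted p per direction elsewhere. miR-6769b-5p, miR-5128, miR-6370 at days 9 and 21, and other values outside that rule were chosen after they were seen. The number of arrays limits the precision.

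At day 9, same-numbered arrays of the arms deviated together in 4 of 4 pairs (r of 0.204 to 0.357), where the number is the column on the slide. This was not so in the other 4 comparisons of groups.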

Additional observations from a re-analysis of the deposited data

Results flagged for a closer look

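The levels of 28 entries, those above background on all 24 arrays or named with changes, were screened for a single array that stood apart from the other 3 of its group. Of 166 groups of 4 arrays, 14 held such an array, and chance gives about 5% of groups. No cause was tested. In control day 3, replicate 4 stood above its group in miR-6769b-5p (3.56, others 3.15 to 3.19), in miR-6366 (1.06, others 0.56 to 0.62) and in miR-5103 (-6.13, others at the floor of -6.21). In control day 9, replicate 2 stood below its group in miR-6370 (-3.84) and miR-6368 (-2.29). In control day 21, replicate 4 stood below its group in miR-6354 (-2.53) and miR-6401 (-5.67). In TSN day 3, replicate 1 was low in miR-5622-3p (-2.97) and miR-6418-5p (-2.68), and replicate 3 in miR-6391 (-4.94) and miR-6392-3p (-3.92). In TSN day 21, replicate 2 was low in miR-6394 (-3.06), miR-5103 (-5.58) and miR-6538 (-0.049).

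Another 9 values are changes of the TSN effect between days that passed the limma interaction test, among the entries named by the rule. From day 3 to day 9 they were -1.35 for miR-5107-5p, -1.36 for miR-5100 and -1.57 for miR-5119. From day 9 to day 21 they were 1.37 for miR-5100, 1.90 for miR-5113, 1.09 for miR-5112 and -1.07 for miR-6238. The remaining 2, 0.61 and -0.61 for miR-5103, rest on control values at or near the floor, with no control array above background, and are not measured changes. The groups in these terms lie on different slides, and slide and group cannot be told apart.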

How the results depend on the processing

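Depth limits these results through signal over background: the control arrays measured 16 to 32 entries and the TSN arrays 36 to 48, and control values of 10 tested entries are bounds. A block for the slide was not run, since no slide holds both arms. Where a scaling moved the median miRNA by more than 0.1 on the log2 scale, changes were read relative to it, with the shift taken as fixed. The causes of the differences below were not tested, except that fewer entries (15) were tested when all 24 arrays had to be above background and more (65) with no filter.

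With the 75th percentile over all probes, 11 entries were lower at day 3 and 7 at day 21, 12 were higher from TSN day 9 to 21, 3 were called between control days, and 13 in the interaction of days 9 and 21. The same 5 counts were 11, 7, 4, 0 and 6 without scaling and 11, 8, 4, 0 and 6 with hybridisation spike-ins, and the interaction of days 3 and 9 was called for 4 and 3. Labelling spike-ins gave 9 lower at day 3, 8 higher from TSN day 9 to 21, 0 between control days, and 5 and 9 in the interactions. Both spike-in settings were split after seeing the data. Higher and lower calls at days 3, 9 and 21 came to 9 and 9, 12 and 14, and 9 and 6 with labelling spike-ins, to 9 and 11, 11 and 13, and 10 and 7 with the percentile over all probes, and to 8 and 6, 9 and 13, and 11 and 5 with total gene signal. Normexp gave 0, 1 and 0 lower at days 3, 9 and 21, 7 higher and 0 lower from TSN day 9 to 21, 0 between control days, and 0 and 1 in the interactions. Under it miR-5103 at day 9 (-0.045), miR-5113 at day 21 (0.21), miR-6418-5p at days 3 and 21 (0.27 and 0.30) and miR-5126 at days 3, 9 and 21 (0.76, 0.71 and 0.44) changed sign. Of these, miR-5126 at days 3 and 9 was called higher. Total gene signal gave 10 higher and 0 lower from TSN day 9 to 21, 0 between control days, and 2 and 5 in the interactions. Under it miR-5131 (1.78), miR-5132-5p at day 9 (0.36), miR-6238 at days 3 and 9 (-0.20 and -0.018) and miR-5103 from TSN day 9 to 21 (3.87) and in the interactions (-8.38 and 4.15) changed sign.

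Quantile normalization called 16 in the first interaction and 2 between control days, the mean of all probes 2 between control days, the authors' deposited values 7 lower at day 3 and 0 lower from TSN day 9 to 21, and no filter 9 lower at day 3. Requiring all 24 arrays above background left 4 higher on each of the 3 days, 9 lower at day 9, 12 higher and 0 lower from TSN day 9 to 21, 0 between control days, and 6 and 9 in the interactions. With every spot above background required, the share of detected miRNAs differed by -0.23 percentage points at day 9 and -0.11 at day 21.

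Leaving out 1 array at a time gave 12 to 14 higher and 4 to 5 lower at day 3, 10 to 12 and 14 to 16 at day 9, 11 to 14 and 3 to 4 at day 21, 18 to 22 higher from TSN day 9 to 21, 0 to 2 between control days, and 6 to 14 and 13 to 22 in the interactions. The count between control days was 0 without control day 3 replicate 3 or 4 or control day 9 replicate 2 or 4, and 2 without control day 9 replicate 1 or 3. With the replicate block, 12 higher and 4 lower were called at day 3, 11 and 15 at day 9, and 11 and 4 at day 21, and no named entry lost its call. A block in the day 9 arrays alone, added after seeing the data, gave 12 and 16. The 3 other probe rankings, the fit without miRNAs at the floor on most arrays, and the fit without control day 21, all added after seeing the data, kept the calls of all named entries they covered.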
